A study of Mus musculus with 58 samples.

Results

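Genes of the integrated stress response were followed in the prefrontal cortex of young mice that had received vehicle, fluoxetine or lithium. The set held 37 genes of the 18088 in the table: the transcription factor gene Atf4, the genes of its partner factors, and genes known as ATF4 targets in amino acid synthesis, amino acid uptake, tRNA charging and feedback on the response. They were chosen by gene name, with no measured value in the rule, but with earlier results of these data known. All 37 were found in the table. The response starts when kinases that sense amino acid shortage, unfolded protein, haem shortage or double-stranded RNA phosphorylate the initiation factor eIF2. General protein synthesis then slows, while the Atf4 mRNA is translated better and ATF4 protein turns on genes that restore amino acid supply. In neurons the pathway is known for its part in translation-dependent plasticity and memory. An mRNA level, as measured here, covers neither the phosphorylation of eIF2 nor the translation of Atf4.

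The mice were C57BL/6J, either wild type (WT) or heterozygous for a knock-in allele of Tbl1xr1 (HT), a gene for a subunit of nuclear receptor corepressor complexes. The sources used here do not give what the knock-in changes in the protein, and the labels name no other allele. Pups of both sexes took in vehicle, fluoxetine (a serotonin reuptake inhibitor) or lithium (a mood stabiliser) with maternal milk from postnatal day 3 to day 24, which the labels give as 3 weeks, and were analysed on day 25. The 2 genotypes, 3 treatments and 2 sexes made 12 groups of 5 libraries each, except WT lithium females and WT lithium males with 4 each, 58 libraries in all. The labels do not say that each library is a separate animal, nor which pups shared a dam. The p-values therefore measure the spread between these libraries, and a drug given through the dam cannot be told apart from differences between litters.

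Values are normalised counts, that is, read counts divided by 1 size factor per library, with 22.9 to 35.0 M reads per library (median 26.7 M). Tbl1xr1 itself ranged from 1817 to 2279 in the 28 WT and from 2276 to 2747 in the 30 HT libraries. Markers of neurons summed to at least 246547 in every library, against medians of 290 for 10 choroid plexus markers and 11423 for 10 striatal markers. In 6 libraries the choroid plexus or striatal sum was over 2 times the median: HT lithium female 2, HT lithium male 1, HT vehicle female 5, WT fluoxetine female 1, WT fluoxetine male 3 and WT vehicle female 4. Choroid plexus markers summed to 25946 in HT lithium male 1 and 33609 in WT vehicle female 4. The highest striatal sum was 32042, in HT lithium female 2. The summed markers of the olfactory bulb ran from 671 to 25579. Of the marker genes, Ttr, Otx2, Eomes, Tbx21 and Barhl2 were at 0 in 1 to 6 libraries.

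Per kilobase of exon, Atf4 (chr15:80255184-80257541, GRCm38) had the highest mean level of the 37 genes, 1406 normalised counts per kilobase over the 58 libraries. The synthetase gene Nars followed at 1279, then Gars at 948, Slc3a2 at 875 and Asns at 847. At the low end stood Mthfd2 at 42.9, Eif4ebp1 at 32.8, Atf3 at 20.6, Pycr1 at 17.1 and Trib3 at 3.88. Trib3, a pseudokinase gene that damps ATF4 activity, had a mean of 8.24 normalised counts, below the minimum of 10 set for testing, so 36 of the 37 genes were tested. Its values ran from 4.32 to 19.3 in WT vehicle (median 6.92), 0.894 to 11.9 in WT lithium (median 6.54), 1.13 to 12.7 in HT vehicle (median 6.47) and 6.16 to 16.4 in HT lithium (median 9.60), all overlapping.

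ATF4 binds DNA as a dimer with C/EBP proteins at composite elements whose core is written TGATGNAA. This core, read on both strands, was found in the 250 bases before the start of 8 of the 30 genes of the set that have a RefSeq promoter sequence (GRCm38.p6), 26.7%, against 1056 of all 27025 genes with one, 3.91%. The 8 were Aars, Asns, Atf3, Chac1, Gars, Pycr1, Slc7a11 and Tars. For 5 of them the stretch around the core lies outside annotated exons and is shown from 5′ to 3′ on the gene's strand, with the core in capitals, because these genes did not move alike under the drugs:
Chac1: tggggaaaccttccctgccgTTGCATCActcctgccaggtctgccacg
Slc7a11: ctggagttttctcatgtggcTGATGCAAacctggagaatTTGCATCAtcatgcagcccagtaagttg
Atf3: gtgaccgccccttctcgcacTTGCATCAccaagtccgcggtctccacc
Pycr1: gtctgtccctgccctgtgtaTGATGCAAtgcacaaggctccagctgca
Gars: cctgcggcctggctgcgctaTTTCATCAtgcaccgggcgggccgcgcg

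These stretches lie at chr2:119351029-119351076 (plus strand, Chac1), chr3:50443633-50443699 (minus strand, Slc7a11), chr1:191183416-191183463 (minus strand, Atf3), chr11:120643824-120643871 (minus strand, Pycr1) and chr6:55037951-55037998 (plus strand, Gars). Slc7a11 carries 2 cores, 66 and 47 bases before the start and on opposite strands. Chac1, Atf3 and Gars hold the core on the strand opposite to the gene, and Pycr1 on the gene's own strand. A match of letters is a description and shows neither binding nor its absence. Of the genes printed, Chac1 rose under lithium, Slc7a11 fell under fluoxetine, and limma called none of Atf3, Pycr1 and Gars in any comparison.

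Atf4 mRNA rose under lithium in both genotypes. In WT vehicle females the 5 libraries held 3045, 2983, 3301, 3156 and 3113 normalised counts, and in WT vehicle males 3083, 3247, 3164, 3228 and 2849.9. In WT lithium females the 4 libraries held 3916, 3569.9, 3568 and 3067, and in WT lithium males 3818, 3812, 3331 and 3463. The highest WT vehicle library lay below 7 of the 8 WT lithium libraries, and 1 female lithium library lay within the vehicle range. HT vehicle females held 3391, 3410.4, 3207, 3013 and 3437, and HT vehicle males 3337, 3129, 3092, 3417 and 2992. HT lithium females held 3571, 3750.4, 3301, 3864 and 3955, and HT lithium males 3828, 3548, 3879, 3372 and 3616. All 10 HT lithium libraries were above the HT vehicle mean of their sex, and 8 were above the highest HT vehicle library.

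**Figure D1:**
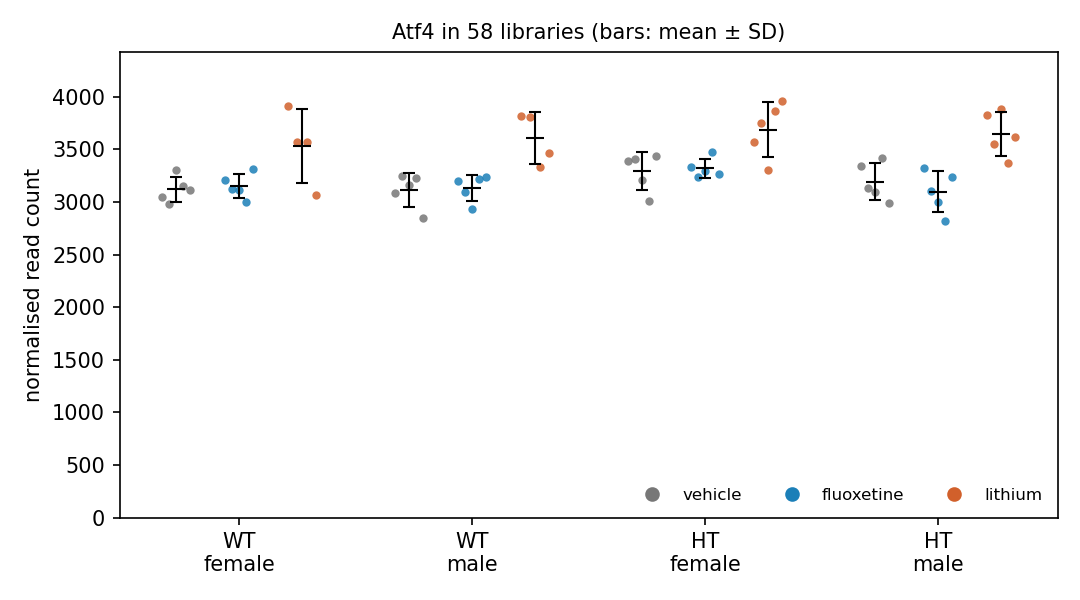
Atf4 level in normalised counts (vertical axis) in each of the 58 libraries, by genotype, treatment and sex. Each point is a library, and each bar shows a group mean ± SD. The lithium libraries of both genotypes run from 3067 to 3955 and 14 of the 18 lie above the highest vehicle library at 3437, while the fluoxetine libraries, 2823 to 3472, cover the vehicle range.

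On the log2(value + 1) scale used throughout for changes, Atf4 rose by 0.19 ± 0.039 (SE) under lithium in WT (limma, Benjamini-Hochberg adjusted p = 0.0392) and by 0.18 ± 0.037 in HT (limma, adjusted p = 0.0171). Of the 16606 genes tested, 0.0301% were called in WT and 0.385% in HT at an adjusted p under 0.05. Among the 36 tested genes of the set, 1 was called in WT, Atf4, and 2 in HT, Atf4 and Sesn2. Over both genotypes together, a comparison added after these values were seen, Atf4 rose by 0.18 ± 0.027, a 1.14-fold change on this scale (95% interval of the log2 change 0.13 to 0.24, limma, adjusted p = 6.55e-05). The WT call is narrow: it was lost in 13 of 18 fits that left out 1 library (limma, adjusted p up to 0.205). Without the 6 libraries high in choroid plexus or striatal genes the log2 change was 0.19 in WT (limma, adjusted p = 0.0897) and 0.17 in HT (adjusted p = 0.0914), and over both genotypes it was 0.18 (adjusted p = 8.02e-04). The WT call was also lost with upper-quartile rescaling (adjusted p = 0.0625) and the HT call with GC and length trends removed (adjusted p = 0.0523).

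Over both genotypes 6 of the 36 tested genes rose under lithium and 0 fell, while 2.67% of all tested genes were called, 227 of them higher and 216 lower. The 6 were Atf4, Sesn2, Mthfd2, Slc7a3, Chac1 and Cars, and each role in the set held at least 1 of them. Counting direction only, 28 of the 36 log2 changes were above 0, with a median of 0.042 against -0.00066 over all genes. The rises were small: among the 6, fold changes on this scale ran from 1.06 for Cars to 1.26 for Slc7a3.

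**Figure D2:**
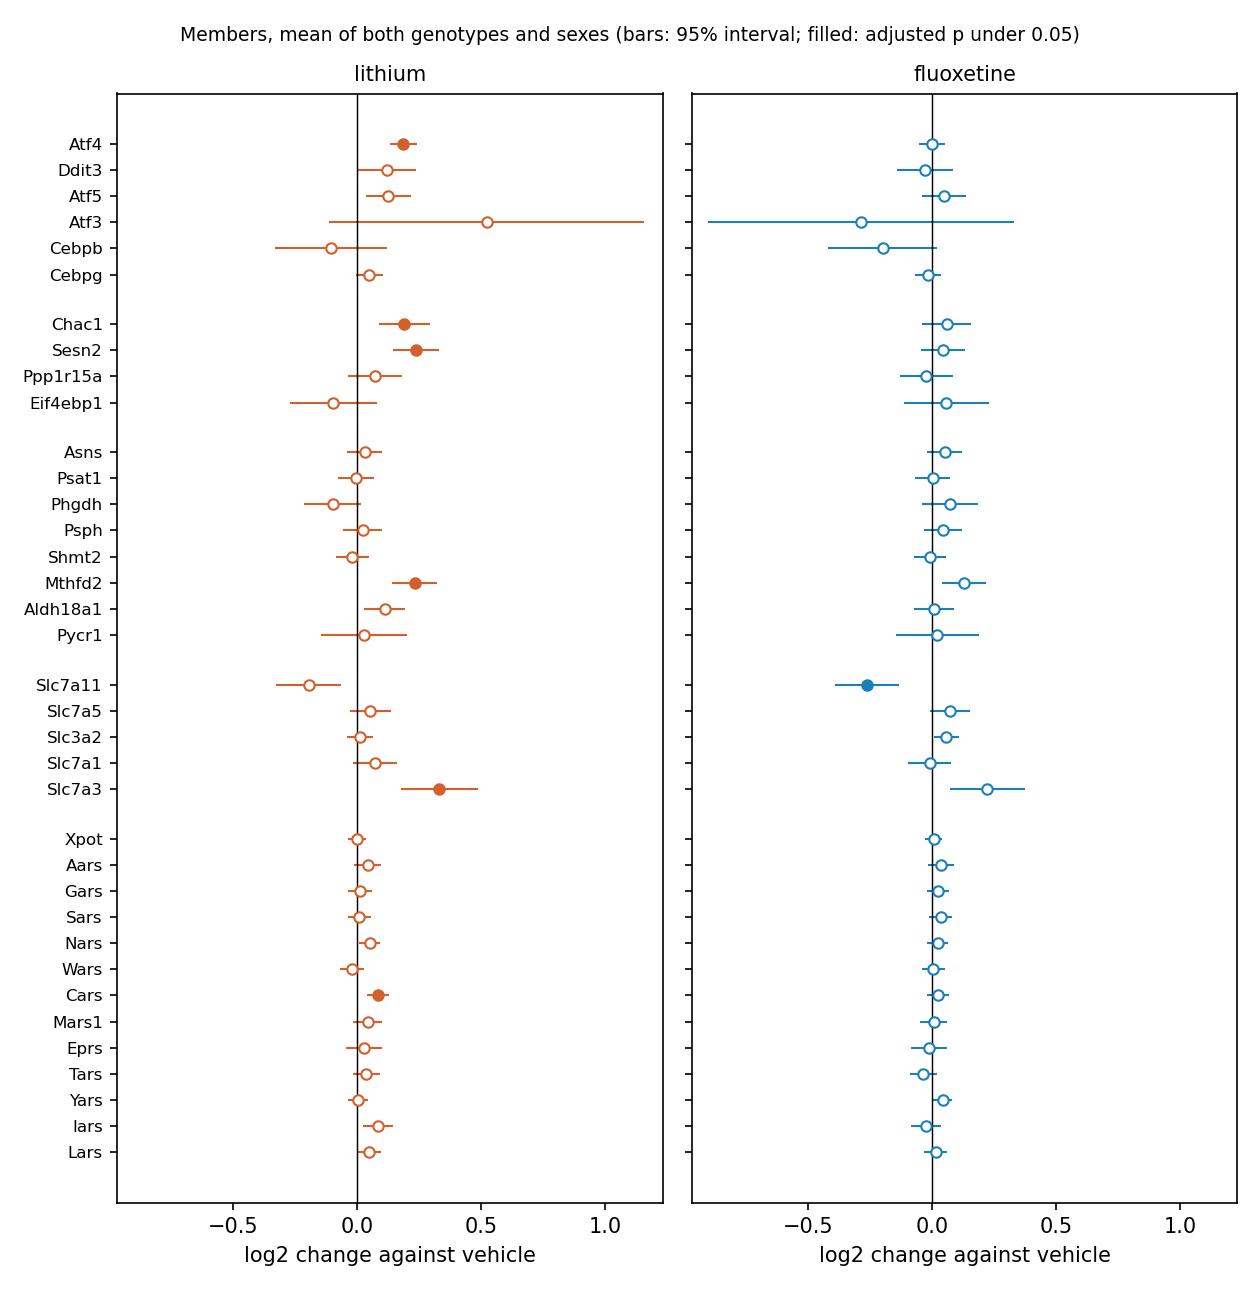
Log2 change against vehicle over both genotypes (horizontal axis, log2 of value + 1) for the 36 tested genes (rows), under lithium and under fluoxetine; points are estimates, lines 95% intervals, and filled points have an adjusted p under 0.05. Under lithium 6 filled points lie above 0, led in size by Slc7a3 at 0.33, and under fluoxetine the single filled point is Slc7a11 at -0.26.

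Among the 6 transcription factor genes, Atf4 was the one called, with a median log2 change of 0.12 for the 6. Atf5, a relative of Atf4 whose mRNA is also translated under eIF2 phosphorylation, had 0.12 ± 0.046 (limma, adjusted p = 0.124), and Ddit3, which encodes the pro-apoptotic factor CHOP, had 0.12 ± 0.058 (adjusted p = 0.276). Cebpg, a dimer partner of ATF4, had 0.049 ± 0.027 (adjusted p = 0.365), and Cebpb -0.11 ± 0.113 (adjusted p = 0.702). Atf3, a stress-induced repressor of the same family, was the least reproducible gene of the set, with a within-group SD of 1.01 on the log2 scale against 0.083 for Atf4. Its levels ran from 11.1 to 162.7 in WT lithium (median 70.5) and from 15.6 to 152 in WT vehicle (median 28.8), so a log2 change of 0.52 ± 0.316 stayed within its spread (limma, adjusted p = 0.423). Ddit3 and Mars1 lie on opposite strands and share 68 exonic bases, as do Atf5 with Il4i1 and Nup62 (82 bases) and Cebpb with Tmem189 (312 bases). The sources used here do not give whether the counting used strand, so the values of these genes are less certain.

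Of the 4 tested feedback genes, Sesn2 and Chac1 rose under lithium over both genotypes. Sesn2 encodes sestrin 2, a leucine-binding inhibitor of mTORC1 that ATF4 induces. Its level ran from 330.0 to 437 in WT vehicle (median 369) and from 359.7 to 541 in WT lithium (median 413), with 7 of 8 lithium libraries above the vehicle mean of their sex. In HT it ran from 325 to 425 under vehicle (median 380.0) and from 366 to 513 under lithium (median 459.8), with 8 of 10 lithium libraries above every vehicle library. The log2 change was 0.21 ± 0.067 in WT (limma, adjusted p = 0.229), 0.26 ± 0.063 in HT (adjusted p = 0.0348) and 0.24 ± 0.046 over both (adjusted p = 0.00306). The HT call was lost in 13 of 20 fits that left out 1 library (limma, adjusted p up to 0.0961) and without the 6 libraries (0.25, adjusted p = 0.128). The call over both genotypes was lost in 0 of 38. Of the lists measured beside the set, the olfactory bulb markers had the highest Pearson's r with Sesn2 within groups (0.44, Spearman's rho 0.43).

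Chac1 encodes a glutathione-degrading enzyme and is a known ATF4 target. It ran from 150.4 to 180.2 in WT vehicle (median 163) and from 148 to 216 in WT lithium (median 193), with 7 of 8 lithium libraries above every WT vehicle library and the last below all of them. In HT the ranges were 149 to 207 (median 165) under vehicle and 161 to 223 (median 198) under lithium. The log2 change over both genotypes was 0.19 ± 0.051 (limma, adjusted p = 0.0311), with 0.20 in WT (adjusted p = 0.344) and 0.18 in HT (adjusted p = 0.239). The call was lost without HT lithium female 5, WT lithium female 1, WT lithium male 1 or WT lithium male 2 (limma, adjusted p up to 0.0602), and without the 6 libraries high in choroid plexus or striatal genes (adjusted p = 0.0873). Ppp1r15a, the phosphatase subunit that restores eIF2 activity, had 0.070 ± 0.054 (adjusted p = 0.558), and Eif4ebp1, a brake on cap-dependent translation, -0.098 ± 0.087 (adjusted p = 0.632).

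In the synthesis genes 1 of 8 rose under lithium over both genotypes. Mthfd2 encodes a mitochondrial enzyme of one-carbon metabolism. It ran from 119 to 149.8 in WT vehicle (median 133) and from 151 to 171 in WT lithium (median 159), and these ranges did not overlap. In HT it ran from 125 to 161 (median 141) under vehicle and from 138 to 196 (median 159.8) under lithium, which overlap. The log2 change was 0.25 ± 0.066 in WT (limma, adjusted p = 0.127), 0.21 ± 0.062 in HT (adjusted p = 0.106) and 0.23 ± 0.045 over both (adjusted p = 0.00332). Aldh18a1, the first enzyme of proline synthesis, had 0.11 ± 0.041 over both (adjusted p = 0.129). Asns, which makes asparagine and is a classical ATF4 target, had 0.029 ± 0.036 (adjusted p = 0.758). Phgdh, the entry enzyme of serine synthesis, had -0.10 ± 0.058 (adjusted p = 0.394), and Psat1 -0.0053 ± 0.036 (adjusted p = 0.967) at the next step. The other 3, Psph, Shmt2 and Pycr1, lay between -0.020 and 0.026. Psph shares 452 exonic bases with Cct6a and Shmt2 shares 32 with Ndufa4l2, so their values are less certain.

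In the amino acid transporters 1 of 5 rose under lithium over both genotypes. Slc7a3 encodes the cationic transporter CAT3, which carries arginine and lysine and is found mainly in neurons. It ran from 116 to 212 in WT vehicle (median 165) and from 171 to 236 in WT lithium (median 212). In HT it ran from 134 to 214 (median 174) under vehicle and from 147 to 309 (median 222) under lithium, and 17 of the 18 lithium libraries were above the vehicle mean of their sex and genotype. The log2 change over both genotypes was 0.33 ± 0.078 (limma, adjusted p = 0.0122), close to equal in WT (0.32, adjusted p = 0.312) and HT (0.34, adjusted p = 0.133). Without the 6 libraries high in choroid plexus or striatal genes it was 0.29 (limma, adjusted p = 0.0586). Slc7a11, the cystine-glutamate exchanger subunit that feeds glutathione synthesis, pointed the other way at -0.20 ± 0.066 (adjusted p = 0.0890) and was below the vehicle mean in 15 of 18 lithium libraries. Slc7a1 had 0.071 ± 0.045, Slc7a5 0.053 ± 0.042 and Slc3a2, the shared heavy chain of several of these carriers, 0.010 ± 0.027. Deviations of Slc7a3 from the group mean were also set against marker lists over the 58 libraries. Pearson's r was 0.49 with the oligodendrocyte, 0.42 with the oligodendrocyte precursor and 0.49 with the striatal list. It was -0.28 with the neuronal and -0.52 with the olfactory bulb list. The part of oligodendrocytes and neurons in the Slc7a3 result was not tested.

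In the 13 genes of tRNA export and charging, Cars rose and the median log2 change was 0.037. Cars encodes cysteinyl-tRNA synthetase, and it shares 211 exonic bases with the pseudogene Gm15580 on the opposite strand, so its values are less certain. Its level ran from 1154 to 1253 in WT vehicle (median 1191), 1151 to 1325 in WT lithium (median 1267), 1172 to 1265 in HT vehicle (median 1209) and 1123 to 1452 in HT lithium (median 1287). The log2 change over both genotypes was 0.083 ± 0.023 (limma, adjusted p = 0.0355), and it was lost in 10 of 38 fits without 1 library (adjusted p up to 0.0704) and without the 6 libraries high in choroid plexus or striatal genes (adjusted p = 0.0766). It was also lost with upper-quartile rescaling (adjusted p = 0.0511) and with the immediate early genes as a covariate (adjusted p = 0.0607). Iars had 0.083 ± 0.031 (adjusted p = 0.130) and Nars 0.049 ± 0.021 (adjusted p = 0.209). Gars, Sars, Yars and Xpot lay between -0.0012 and 0.0094. The within-group SD of Xpot, the tRNA exporter gene, was the smallest of the set at 0.052 on the log2 scale.

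**Figure D3:**
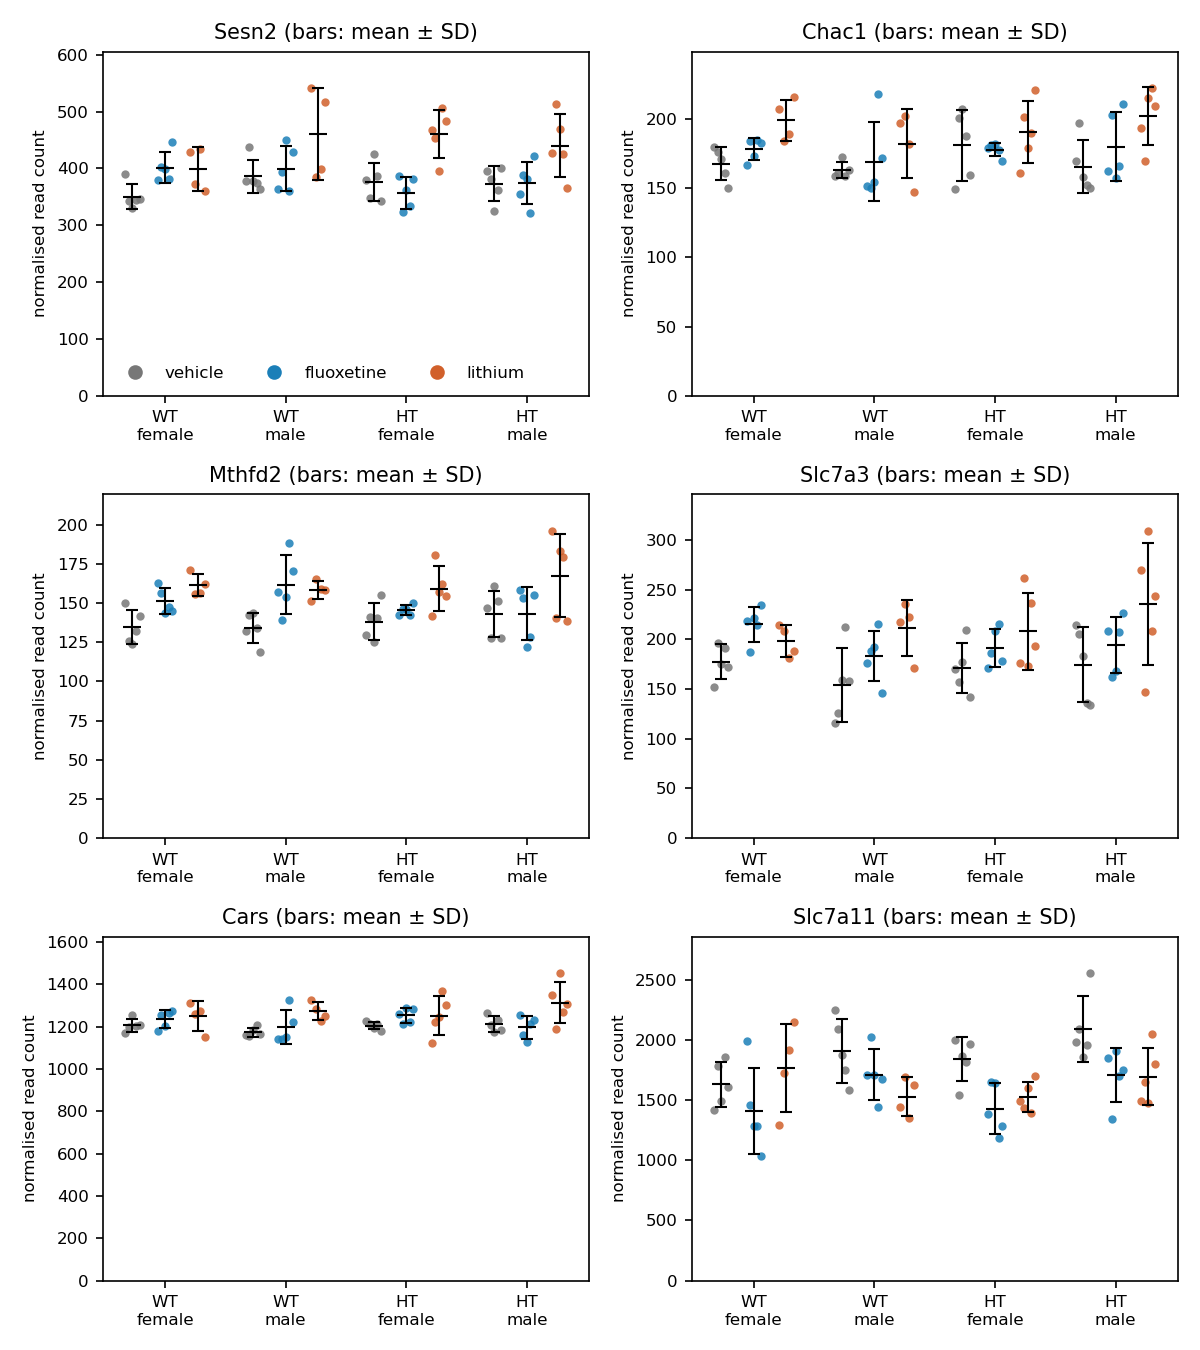
Levels of Sesn2, Chac1, Mthfd2, Slc7a3, Cars and Slc7a11 in normalised counts (vertical axes, a panel per gene) in each library, by genotype, treatment and sex. Points are libraries, and bars show group means ± SD. Lithium libraries sit high for the first 5 genes with overlap of the vehicle range, except Mthfd2 in WT (151 to 171 against 119 to 149.8), and Slc7a11 sits low under fluoxetine.

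WT and HT do not share vehicle libraries, so their lithium changes can be set side by side. Of the 36 genes, 20 were above 0 in both genotypes, 4 were below 0 in both and 12 had opposite signs, with medians of 0.054 in WT and 0.016 in HT. In the test of the difference itself, the lithium change in HT minus that in WT, limma called 0 of the 36 genes, and 0% of all tested genes, with 0 of the 36 also at an unadjusted p under 0.05. By edgeR and DESeq2 the count for the set was 0 as well. For Atf4 the difference was -0.015 ± 0.054 with a 95% interval of -0.12 to 0.094, which leaves room for a difference on either side of 0. The smallest p-values belonged to Iars (-0.12 ± 0.061), Mars1 (0.11 ± 0.057) and Slc7a1 (-0.15 ± 0.089), each with an adjusted p of 0.998.

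**Figure D4:**
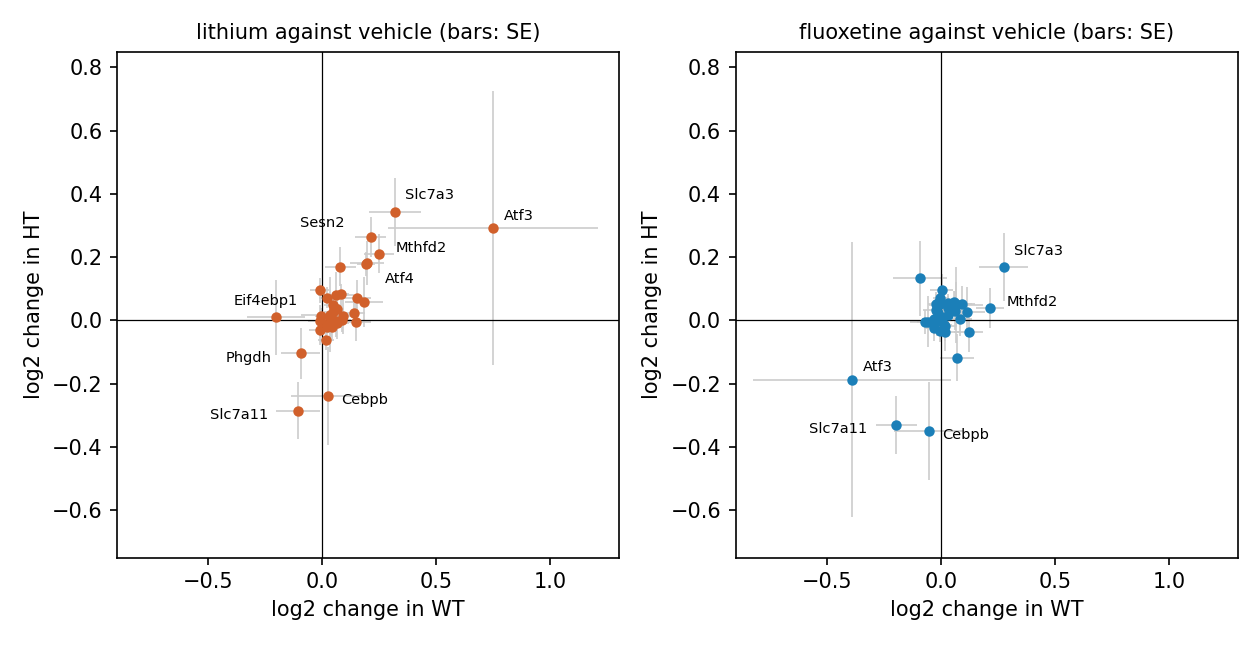
Log2 change against vehicle in WT (horizontal axis) and in HT (vertical axis) for the 36 tested genes, under lithium and under fluoxetine; points are genes and lines standard errors. Under lithium Atf4, Sesn2, Mthfd2, Chac1 and Slc7a3 lie above 0 on both axes, with Atf4 at 0.19 and 0.18.

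Other genes of the pathway were read from lists of genes outside the set. Of 22 further ATF4 targets tested, 3 rose under lithium over both genotypes and 1 fell. Ddit4, an mTORC1 inhibitor also known as REDD1, rose by 0.35 ± 0.072 (limma, adjusted p = 0.00439), Slc38a2, a neutral amino acid transporter, by 0.24 ± 0.062 (adjusted p = 0.0249), and Stc2, a secreted glycoprotein gene, by 0.36 ± 0.098 (adjusted p = 0.0355). Stc2 is named because it completes the count, after its value was seen. Sqstm1, the autophagy receptor p62, fell by 0.13 ± 0.035 on the log2 scale (limma, adjusted p = 0.0310), a call lost in 2 of 38 fits without 1 library. Of 11 further cytosolic synthetase and scaffold genes 1 rose, Eef1e1 (0.13 ± 0.028, adjusted p = 0.00712). None of the 14 genes of the eIF2 kinases and eIF2 pathway was called, with Eif2s1 nearest at 0.076 ± 0.023 (limma, adjusted p = 0.0608) and 5 genes at an unadjusted p under 0.05. The counts of calls were 0 by edgeR and 1 by DESeq2, Eif2s1. In the 21 genes of the endoplasmic reticulum unfolded protein response 0 were called, with 3 at an unadjusted p under 0.05, 14 below 0 and Sel1l nearest (-0.093 ± 0.032, limma, adjusted p = 0.0914). Of 17 mitochondrial synthetase genes 0 were called and 2 had an unadjusted p under 0.05, Iars2 being nearest (-0.046 ± 0.018, adjusted p = 0.153). By edgeR and DESeq2 the unfolded protein response and mitochondrial lists had 0 called genes too.

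Within WT and within HT, limma called 0 genes of these 5 lists under lithium. At an unadjusted p under 0.05 there were 3 and 1 genes of the eIF2 list, 4 and 5 further ATF4 targets, 0 and 7 genes of the unfolded protein response, 3 and 4 further cytosolic synthetases and 0 and 1 mitochondrial synthetases, in WT and HT respectively, and edgeR and DESeq2 called 0 genes of the lists in either genotype. Ddit4 had the smallest p among the ATF4 targets in both, at 0.38 ± 0.105 in WT (limma, adjusted p = 0.162) and 0.32 ± 0.099 in HT (adjusted p = 0.126). The nearest genes of the other lists in WT were Eif2s1 (0.10 ± 0.034), Dnajb9 (0.083 ± 0.041), Eef1e1 (0.12 ± 0.041) and Nars2 (-0.072 ± 0.042), and in HT Eif2ak1 (-0.065 ± 0.029), Calr (-0.16 ± 0.047), Dars (-0.10 ± 0.029) and Iars2 (-0.053 ± 0.025). Of the unfolded protein response genes 17 of 21 were above 0 in WT and 18 of 21 were below 0 in HT. These are counts of signs alone, given without the share of all tested genes. No gene of that list was called when the lithium change was compared between the genotypes.

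Some cell type markers and activity genes moved beside the lithium result. Of 8 mural cell markers, 7 were below 0 under lithium over both genotypes and Acta2 fell by 0.41 on the log2 scale (limma, adjusted p = 0.00473); the microglial gene Cx3cr1 (-0.23, adjusted p = 0.00897) and the endothelial gene Kdr (-0.33, adjusted p = 0.0308) fell too, and the neuronal gene Tubb3 rose (0.17, adjusted p = 0.00884). Acta2, Cx3cr1, Kdr and Tubb3 were each the only called gene of their list, which held 8 mural, 8 microglial, 10 endothelial and 10 neuronal markers. Summed mural markers ran from 6720 to 10059 under vehicle and from 6431 to 9136 under lithium (medians 8669 and 7916). Microglial markers ran from 8539 to 11939 and 8426 to 11342 (medians 10248 and 9839). Endothelial markers ran from 8415 to 11826 and 8543 to 11546 (medians 10042 and 9619). Neuronal markers ran from 255335 to 319158 and 263392 to 305747, with a lower median under lithium (285999 against 292659). All 6 oligodendrocyte precursor markers and 8 of 10 astrocyte markers were below 0, and 8 of 8 olfactory bulb markers above 0, none of them called. In bulk tissue, fewer cells of a type and less RNA per cell cannot be told apart, and the part of these markers in the lithium changes was not tested. With the mean log2 level of the olfactory bulb markers as a covariate, the count of genes of the set that rose was 6. It was also 6 with the mean log2 levels of the striatal, choroid plexus and leptomeningeal markers as covariates. These covariates did not include the mural, microglial, endothelial or neuronal markers.

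Of the 18 lists measured beside the set, the immediate early genes, which follow neuronal activity, had the highest Pearson correlation with Atf4 across libraries, and the unfolded protein response list the next (r = 0.49, rho = 0.55, r = 0.55 without the 2 libraries farthest from the median). By Spearman's rho these lists were level to 2 decimals. Of 18 such genes 16 were above 0 under lithium over both genotypes, with a median log2 change of 0.14 and 0 called by limma, edgeR or DESeq2 (1 at an unadjusted p under 0.05). Their summed level ran from 20166 to 51876 under vehicle (median 32190), from 20836 to 47998 under lithium (median 38956) and from 15275 to 39916 under fluoxetine (median 28494). Across the 58 libraries, after group means were removed, the Atf4 level and the mean of these genes had Pearson's r = 0.63 and Spearman's rho = 0.55, and r = 0.63 without the 2 libraries farthest from the median. With the immediate early genes as a covariate, a fit added after the data were seen, the Atf4 change under lithium was 0.17 in WT (limma, adjusted p = 0.0342), 0.16 in HT (adjusted p = 0.00499) and 0.17 over both genotypes (adjusted p = 7.26e-06).

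Fluoxetine left Atf4 close to its vehicle level. Slc7a11 fell, 1 of the 36 tested genes, against 2.55% of all genes called over both genotypes. WT fluoxetine libraries held 2933 to 3309.7 normalised counts of Atf4 (median 3158) against 2849.9 to 3301 under vehicle (median 3135). HT fluoxetine libraries held 2823 to 3472 (median 3252) against 2992 to 3437 (median 3272). The log2 change over both genotypes was -0.0017 ± 0.026 (limma, adjusted p = 0.983), with a 95% interval of -0.055 to 0.051.

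Within each genotype limma called 0 of the 36 genes under fluoxetine, while 0.367% of all tested genes were called in WT and 0% in HT. At an unadjusted p under 0.05 there were 3 genes of the set in WT and 4 in HT, and edgeR and DESeq2 called 0 in either genotype. The 3 smallest p-values in WT belonged to Mthfd2 (0.22 ± 0.062, adjusted p = 0.0893), Slc7a3 (0.27, adjusted p = 0.228) and Slc7a11 (-0.20 ± 0.090, adjusted p = 0.325). In HT they belonged to Slc7a11 (-0.33 ± 0.090, adjusted p = 0.213), Cebpb (-0.35 ± 0.154, adjusted p = 0.475) and Sars (0.070 ± 0.032, adjusted p = 0.488).

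Over both genotypes 2.55% of all genes were called under fluoxetine. Of the 36, 1 was called, a share close to that of all genes. This was Slc7a11, which fell. Its level ran from 1418 to 2251 in WT vehicle (median 1769.6) and from 1036 to 2031 in WT fluoxetine (median 1569.5). In HT it ran from 1543 to 2557 under vehicle (median 1967) and from 1185 to 1913 under fluoxetine (median 1647). The ranges overlapped, and 18 of 20 fluoxetine libraries were below the vehicle mean of their sex and genotype. The log2 change was -0.26 ± 0.064, a 0.833-fold level (limma, adjusted p = 0.0195), and the call was kept in each of 40 fits that left out 1 library. Slc7a11 is known mainly from astrocytes, and across libraries its deviation from the group mean followed that of 10 astrocyte markers (Pearson's r = 0.66, Spearman's rho = 0.62, 58 libraries, r = 0.57 without the 2 farthest). Astrocyte markers summed to 124079 to 159005 under vehicle (median 142986) and 124489 to 170276 under fluoxetine (median 134945), 7 of 10 were below 0 and none was called. Blood vessel markers were called under fluoxetine: of 8 mural cell markers, all below 0, Myh11 (-0.33), Acta2 (-0.38) and Rgs5 (-0.29) fell, and of 10 endothelial markers Kdr (-0.34) and Cdh5 (-0.19) fell and Slc2a1 (0.30) rose (limma). Mural markers summed to 6720 to 10059 under vehicle (median 8669) and 6203 to 9966 under fluoxetine (median 7667), and endothelial markers to 8415 to 11826 (median 10042) and 8679 to 13599 (median 10210). Across the 58 libraries Slc7a11 had r = 0.36 (rho = 0.32, r = 0.35 without the 2 farthest) with the mural list and r = 0.35 (rho = 0.26, r = 0.20 without them) with the endothelial list. The part of these 3 cell types in the Slc7a11 result was not tested.

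Beside Slc7a11, 24 of the 36 genes were above 0 under fluoxetine over both genotypes, with a median of 0.017 against 0.0017 over all genes. Slc7a3 (0.22 ± 0.076, limma, adjusted p = 0.0985) and Mthfd2 (0.13 ± 0.044, adjusted p = 0.103) came next; under lithium, against the same vehicle libraries, they had 0.33 and 0.23. Outside the set, 8 of 21 genes of the unfolded protein response fell. The leading 3 were the chaperone genes Calr (-0.19 ± 0.034, limma, adjusted p = 0.00217) and Dnajb11 (-0.12 ± 0.029, adjusted p = 0.0191) and the isomerase gene Pdia6 (-0.18 ± 0.042, adjusted p = 0.0165). The eIF2 subunit gene Eif2s3x rose (0.078 ± 0.021, adjusted p = 0.0346), as did the synthetase gene Vars (0.11 ± 0.026, adjusted p = 0.0161); the Eif2s3x call was lost in 10 of 40 fits without 1 library (adjusted p up to 0.0633). Of the 22 further ATF4 targets 0 were called and 5 had an unadjusted p under 0.05, with Vldlr nearest (-0.068 ± 0.021, limma, adjusted p = 0.0667), while DESeq2 called 2, Vldlr and Slc1a5, and edgeR 0. Of the 17 mitochondrial synthetase genes 0 were called and 2 had an unadjusted p under 0.05, with Pars2 nearest (0.16 ± 0.065, adjusted p = 0.179), and edgeR and DESeq2 called 0. In WT alone the unfolded protein response list had 4 called genes, all lower, led by Calr (-0.25 ± 0.047, limma, adjusted p = 0.00923), Canx and Hsp90b1, while the other 4 lists had 0 by limma, edgeR and DESeq2. Of 20 fits without 1 library, the Canx call was lost in 14, the Hsp90b1 call in 13 (adjusted p up to 0.129) and the Calr call in 0. The nearest genes of those 4 were Eif2ak4, the kinase GCN2 that senses amino acid shortage (0.17 ± 0.051, limma, adjusted p = 0.104), Slc1a5 (0.39 ± 0.143, adjusted p = 0.187), Vars (0.12 ± 0.036, adjusted p = 0.105) and Nars2 (-0.13 ± 0.039, adjusted p = 0.104), among 2, 5, 3 and 1 genes of their lists at an unadjusted p under 0.05. In HT alone limma, edgeR and DESeq2 called 0 genes of the 5 lists. Of their 85 genes 11 had an unadjusted p under 0.05, among them 2 eIF2 genes, 1 further ATF4 target, 6 unfolded protein response genes and 1 cytosolic synthetase gene, led by Eif2s3x (0.11 ± 0.030), Got1 (0.084 ± 0.036), Dnajb11 (-0.12 ± 0.041) and Vars (0.10 ± 0.036).

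The change under fluoxetine in HT minus that in WT was called for 0 of the 36 genes and 0% of all genes by limma, with 0 of the 36 at an unadjusted p under 0.05 and 0 called by edgeR or DESeq2. Mthfd2 (-0.18 ± 0.088), Ppp1r15a (-0.19 ± 0.105) and Sesn2 (-0.16 ± 0.089) had the smallest p-values, each with an adjusted p of 0.964. The 5 pathway lists had 0 genes called by limma, edgeR or DESeq2 in this comparison, with 2 eIF2 genes, 1 further ATF4 target, 2 unfolded protein response genes and 1 mitochondrial synthetase at an unadjusted p under 0.05; the nearest of the lists were Eif2s1 (0.11), Got1 (0.12), Pdia3 (0.10), Dars (0.081) and Nars2 (0.14). For lithium the same comparison also had 0 called genes of the lists by the 3 tools, with 4 unfolded protein response genes and 1 each of the cytosolic and mitochondrial synthetases at an unadjusted p under 0.05, and with Eif2b5 (-0.079), Jdp2 (-0.19), Ern1 (0.23), Dars (-0.10) and Nars2 (0.12) nearest.

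Lithium and fluoxetine libraries were also compared directly, over both genotypes, in a comparison added after the values were seen. Of all tested genes 7.5% were called. Of the 36 genes 3 were called, all higher under lithium, a share close to that of all tested genes. Atf4 was higher by 0.19 ± 0.027 (limma, adjusted p = 2.23e-05), Sesn2 by 0.20 ± 0.046 (adjusted p = 0.00549) and Iars, isoleucyl-tRNA synthetase, by 0.11 ± 0.031 (adjusted p = 0.0201). Iars ran from 1686 to 2093 in WT lithium (median 1964) and from 1602.3 to 1847 in WT fluoxetine (median 1759), and in HT from 1749 to 2188 under lithium (median 1855) and from 1619 to 2042 under fluoxetine (median 1872). The Iars medians stood apart between the drugs in WT and lay close together in HT. Whether the drug difference itself depended on genotype was not tested. Slc7a11, the gene that fell under fluoxetine, did not separate the drugs (0.066 ± 0.066, limma, adjusted p = 0.60, 95% interval -0.066 to 0.20). DESeq2 and edgeR each called 4 genes here, adding Atf3 (0.81 ± 0.316 by limma, adjusted p = 0.105).

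Immediate early genes differed between the drugs as well: 8 of 18 were called, all higher under lithium, among them Dusp1 (0.61 ± 0.132, limma, adjusted p = 0.00269), Arc (1.22 ± 0.274, adjusted p = 0.00406) and Fosl2 (0.68 ± 0.162, adjusted p = 0.00626). With these genes as a covariate the Atf4 difference was 0.12 ± 0.025 (limma, adjusted p = 0.00978), that of Sesn2 0.18 (adjusted p = 0.0921) and that of Iars 0.053 (adjusted p = 0.513). In the pathway lists, the ATF4 targets Vldlr (0.10 ± 0.022, adjusted p = 0.00253) and Ddit4 (0.29 ± 0.072, adjusted p = 0.00758) were higher under lithium and Sqstm1 (-0.15 ± 0.035, adjusted p = 0.00409) lower. In the unfolded protein response list 4 of 21 were higher under lithium, led by Dnajb11 (0.15 ± 0.030, adjusted p = 0.00118), Sdf2l1 (0.33 ± 0.093, adjusted p = 0.0200) and Manf (0.16 ± 0.046, adjusted p = 0.0203). Eef1e1 was higher under lithium (0.098 ± 0.028, adjusted p = 0.0212) and Qars (-0.095 ± 0.021, adjusted p = 0.00374), Pars2 (-0.23 ± 0.067, adjusted p = 0.0227) and Iars2 (-0.056 ± 0.018, adjusted p = 0.0441) were lower. The Iars2 call was lost in 23 of 38 fits without 1 library (adjusted p up to 0.0945) and in 8 of 17 other settings. Of the 14 eIF2 genes 0 were called and 2 had an unadjusted p under 0.05, with Eif2s1 nearest (0.061 ± 0.023, limma, adjusted p = 0.0977), and edgeR and DESeq2 called 0.

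Between HT and WT under vehicle, limma called 0 of the 36 genes, and 0 had an unadjusted p under 0.05, with 0.0181% of all genes called. Both edgeR and DESeq2 called 0 of the set. The log2 difference of Atf4, HT minus WT, was 0.056 ± 0.037 (limma, adjusted p = 0.885), between means of 3243 ± 176 (SD, n = 10) in HT and 3117 ± 134 (SD, n = 10) in WT. The smallest p-values belonged to Slc7a1 (0.12 ± 0.061), the synthetase gene Wars (0.064 ± 0.033, adjusted p = 0.857 for both) and Slc7a11 (0.15 ± 0.090, adjusted p = 0.873). All 5 transporters were above 0, with a median of 0.083 against 0.00098 over all genes. Of the pathway lists 0 genes were called, and the gene nearest was Nupr1, a stress-induced chromatin protein gene and ATF4 target (-0.37 ± 0.102, limma, adjusted p = 0.354), the 1 gene of that list at an unadjusted p under 0.05; the unfolded protein response list had 2 such genes and the other 3 lists 0, and edgeR and DESeq2 called 0. The nearest of the other lists were Eif2b3 (0.11 ± 0.061), Ern1 (-0.16 ± 0.062), Dars (0.039 ± 0.029) and Nars2 (-0.069 ± 0.039).

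Under fluoxetine 0.994% of all genes differed between HT and WT, and 0 of the 36 by limma, with 7 at an unadjusted p under 0.05. Nars, asparaginyl-tRNA synthetase, came nearest at 0.10 ± 0.029 (limma, adjusted p = 0.0575) and was called by DESeq2, while edgeR called 0. Sars followed (0.098 ± 0.032, adjusted p = 0.0893), then Ppp1r15a (-0.21 ± 0.075, adjusted p = 0.120). Of the 13 genes of tRNA export and charging 12 were above 0 in HT. Outside the set, Dars, another cytosolic synthetase (0.12 ± 0.029, limma, adjusted p = 0.0294), and the eIF2 alpha subunit gene Eif2s1 (0.13 ± 0.032, adjusted p = 0.0391) were higher in HT, as were 4 of 21 unfolded protein response genes led by Pdia3 (0.16 ± 0.034, adjusted p = 0.0140), Canx and Calr. Canx, Calr and Hsp90b1 were also called under fluoxetine against vehicle in WT, where they were lower. Both comparisons use the same WT fluoxetine libraries, so these results are not independent of each other. Of 20 fits without 1 library, the calls of Canx, Calr and Eif2s1 were each lost in 9, that of Dars in 6 and that of Pdia3 in 1 (limma, adjusted p up to 0.116). Of the further ATF4 targets 0 were called and 5 had an unadjusted p under 0.05, with Jdp2 nearest (0.21 ± 0.068, limma, adjusted p = 0.0889), and of the mitochondrial synthetases 0 were called and 0 had such a p, with Rars2 nearest (0.096 ± 0.051); edgeR and DESeq2 called 0 in both lists. Immediate early genes were lower in HT here in 14 of 18, with Npas4, Btg2 and Ier2 called, and their part in these values was not tested; with them as a covariate 2 genes of the set were called, Nars and Sars.

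Under lithium 0.012% of all genes differed between HT and WT, and 0 of the 36 by limma, with 0 at an unadjusted p under 0.05, and 0 by DESeq2 or edgeR. The smallest p-values belonged to Aldh18a1 (-0.11 ± 0.060, adjusted p = 0.915), Mars1 (0.072 ± 0.042, adjusted p = 0.924) and Aars (-0.059 ± 0.039, adjusted p = 0.937). Aars shares 1326 exonic bases with Exosc6, which is on the same strand, so its value is less certain. The pathway lists had 0 called genes by limma, edgeR or DESeq2, with 1 gene each of the unfolded protein response, cytosolic and mitochondrial synthetase lists at an unadjusted p under 0.05. Nearest were Eif2ak3 (0.069 ± 0.049), Nupr1 (-0.21 ± 0.108), Pdia4 (-0.21 ± 0.104), Dars (-0.063 ± 0.031) and Lars2 (0.40 ± 0.181).

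Between females and males over all groups 0.114% of genes differed, and 0 of the 36 by limma, with 3 at an unadjusted p under 0.05 and 0 called by edgeR or DESeq2. They were Slc7a11 (-0.15 ± 0.053, adjusted p = 0.529), Ddit3 (0.12 ± 0.047, adjusted p = 0.586) and Tars (0.055 ± 0.023, adjusted p = 0.589). In the eIF2 pathway the X-linked subunit gene Eif2s3x was higher in females (0.53 ± 0.018, limma, adjusted p = 6.17e-30). The other 4 pathway lists had 0 genes called by limma, edgeR or DESeq2, with 0 further ATF4 targets, 11 unfolded protein response genes, 2 cytosolic and 0 mitochondrial synthetases at an unadjusted p under 0.05, and with Got1 (0.037), Calr (0.097), Qars (0.047) and Sars2 (0.067) nearest.

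The drug changes were also compared between the sexes, as the change in females minus that in males, and none of the 36 genes was called in any of 4 such comparisons by limma, edgeR or DESeq2. For fluoxetine in WT 0.0181% of all genes were called and 0 of the set had an unadjusted p under 0.05, Cebpb being nearest (0.62 ± 0.309, limma, adjusted p = 0.469). For fluoxetine in HT 0% were called and 2 of the set had such a p, Iars (0.22 ± 0.084, adjusted p = 0.887) and Tars (0.19 ± 0.076, adjusted p = 0.916). For lithium in WT 0% were called and 1 of the set had such a p, Slc7a11 (0.41 ± 0.192, adjusted p = 0.9999). For lithium in HT 0% were called and 2 of the set had such a p, led by Ddit3 (-0.36 ± 0.159, adjusted p = 0.9998). The 3 tools called 0 genes of the 5 pathway lists in these comparisons; at an unadjusted p under 0.05 there were 7 for fluoxetine in WT, led by Eif2s3x (-0.19), 13 for fluoxetine in HT, led by Calr (0.31), 1 for lithium in WT and 0 for lithium in HT, with Atf6 (0.27) among the nearest.

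Within groups the genes of the set varied together to different degrees. The correlations that follow are over the 58 libraries after group means were removed, are descriptions without a test, and join genes measured in the same libraries, whose depth had r = 0.10 with Atf4. Atf4 had a median Pearson's r of 0.27 with the other 35 tested genes (quartiles 0.11 and 0.39), against -0.0024 with the other 16605 genes tested (quartiles -0.18 and 0.18). The closest were Aldh18a1 (r = 0.69, rho = 0.64) and Slc3a2 (r = 0.67, rho = 0.71), neither of which was called under lithium. The highest values in the set joined 3 genes of amino acid charging and asparagine synthesis, Asns with Gars (r = 0.84, rho = 0.83), Gars with Nars (r = 0.83, rho = 0.83) and Asns with Nars (r = 0.82, rho = 0.81). Slc7a11 ran against the synthetases, with r = -0.75 (rho = -0.74) for Yars and r = -0.71 (rho = -0.64) for Aars, and Phgdh ran against Nars (r = -0.71, rho = -0.70). Slc7a11 and Phgdh also ran with the astrocyte markers (r = 0.66 and 0.63) and against the neuronal markers (r = -0.36 and -0.33). The part of cell composition in these correlations was not tested. Over all 630 pairs the median was 0.11, and over the 78 pairs of the tRNA genes 0.31.

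**Figure D5:**
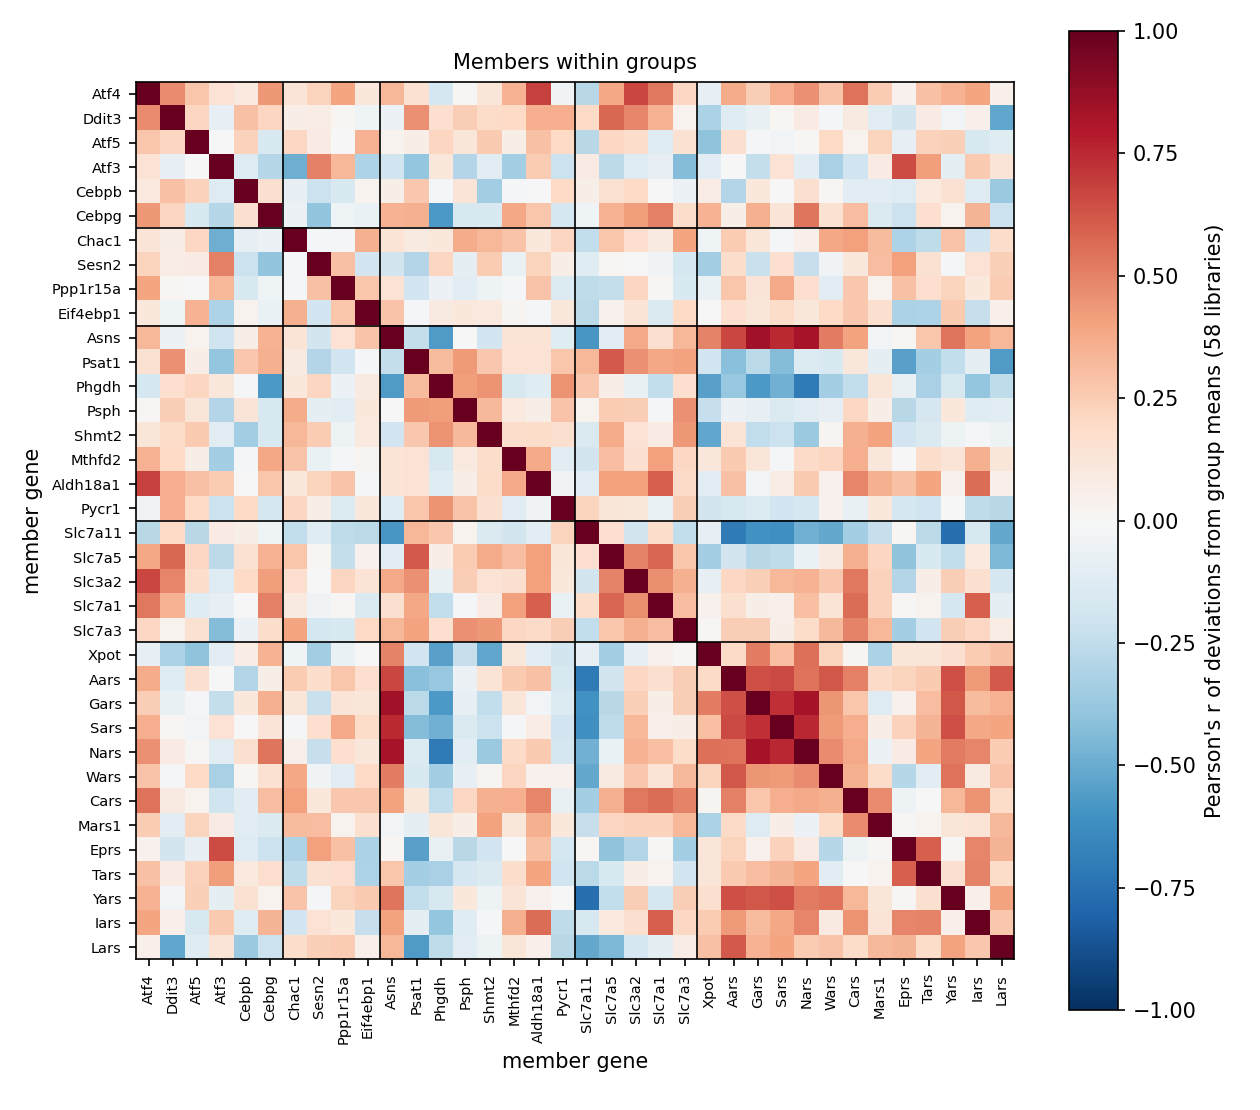
Heat map of Pearson's r (colour scale from -1 to 1) between the 36 tested genes, from their log2 deviations from the group mean in 58 libraries; rows and columns are genes ordered by role. The block of tRNA genes has a median r of 0.31, and Slc7a11 stands out with negative values down to -0.75.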

How the data were processed

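Prefrontal cortex RNA of 58 libraries was sequenced after a stranded mRNA kit, per the labels' protocols. Salmon 0.11.2, R 3.6.0, DESeq2 1.19.11 and GRCm38 are named in the submitters' processing notes, and the sources used here do not give the order of steps. The deposited table holds a never-negative signal per gene, the authors' read counts divided by 1 size factor per library (0.787 to 1.23); 100.0% of values came out as whole reads (tolerance 0.0001). Gene names were taken from GENCODE M21 for 18077 of 18088 gene IDs, and 1 member, Mars1, was matched through a RefSeq synonym. The table had 0 columns without a sample.

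Changes were tested in R 4.3.3 by limma 3.58.1 on log2(value + 1), for 16606 genes with a mean of at least 10, in 1 model of 12 group means with 46 residual degrees of freedom. The pseudocount of 1 understates changes of low genes. A drug or genotype change is the mean of the female and male differences, weighted equally. Genes were called at a Benjamini-Hochberg adjusted p under 0.05 over all genes tested. Counts at an unadjusted p under 0.05 are given without the share of all tested genes at that threshold. They are descriptions, and whether they exceed that share was not tested. Of 17 comparisons, 3 over both genotypes were added after values were seen. The recovered reads were tested with edgeR 4.0.16 (quasi-likelihood, 17757 genes) and DESeq2 1.42.0 as alternatives. Over both genotypes the count test in edgeR called 452 genes under lithium, against 443 by limma. The fit was tested on simulated data with known changes.

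The members and all gene lists were chosen with earlier results of these data known. All members are accounted for. Values are given for Atf4 and every called member, the 3 members with the smallest p where none was called, and up to 3 called genes (otherwise 1) of each pathway list. Motifs were read from RefSeq promoter sequences of GRCm38.p6, without 7 members that have no sequence there (Cars, Eif4ebp1, Lars, Nars, Slc7a3, Slc7a5 and Wars). Some genes of the pathway lists are not reported here.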

Additional observations from a re-analysis of the deposited data

Results flagged for a closer look

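In 96 groups of libraries (8 genes of the set in 12 groups), 2 held a library far from the others by Dixon's criterion at the 95% level, and chance alone marks about 1 group in 20. Both concern Sesn2 under vehicle. In WT vehicle females, library 1 held 389 normalised counts, with the next at 347, a gap of 0.72 of the group's range. In WT vehicle males, library 2 held 437, with the next at 378, a gap of 0.80 of the range.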

How the results depend on the processing

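Of the 17 counts of called genes of the set, those of 10 comparisons were 0 under each of the alternatives run: HT against WT under vehicle and under lithium, fluoxetine in HT, the 2 drug changes compared between genotypes, females against males and the 4 drug changes compared between the sexes. Lithium in WT (1 gene) gave 3 with array weights and 0 with females alone, males alone, the compared groups only, upper-quartile rescaling or without the 6 libraries high in choroid plexus or striatal genes. Lithium in HT (2 genes) gave 3 with the olfactory bulb covariate, 1 with array weights or with GC and length trends removed, and 0 with females alone, males alone, the compared groups only or without those 6 libraries. Lithium over both genotypes (6) gave 0 in females alone, 1 in males alone and 3 without the 6 libraries. Fluoxetine over both genotypes (1) gave 0 in females alone or males alone and 2 with the tissue or olfactory bulb covariates. Lithium against fluoxetine (3) gave 8 with array weights, 6 with the olfactory bulb covariate, and 1 with females alone, males alone or the immediate early gene covariate. Fluoxetine in WT (0) gave 1 with array weights. HT against WT under fluoxetine (0) gave 1 with DESeq2, array weights or GC and length trends removed, and 2 with the immediate early gene covariate. The cause of these shifts was not tested. Fits on 1 sex or on the compared groups also held fewer libraries.

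Leaving out 1 library at a time gave 0 to 1 called genes of the set for lithium in WT, 1 to 2 in HT, 4 to 9 over both genotypes, 1 to 2 for fluoxetine over both genotypes, 3 to 8 for lithium against fluoxetine and 0 to 2 for HT against WT under fluoxetine. The 9 and the 8 both came without WT lithium female 4. The fluoxetine count of 2 came without WT vehicle male 4, and the last count of 2 without WT fluoxetine male 1. For lithium in WT the Atf4 call held without WT lithium female 3 or 4, WT lithium male 3, WT vehicle female 3 or WT vehicle male 2, and was lost without each of the other 13. Sesn2 in HT held without HT lithium female 3, HT lithium male 4 or 5 and 4 vehicle libraries.

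The sign of the Atf4 change under fluoxetine, near 0, turned in WT with GC and length trends removed (-0.038) and without WT vehicle male 5 (-0.0038, range without 1 library -0.0038 to 0.024). In HT it turned in females alone (0.014), with the immediate early gene covariate (0.053) and without HT fluoxetine male 4 (0.0010, range without 1 library -0.031 to 0.0010). Over both genotypes it turned in females alone (0.014), with the immediate early gene (0.044) or olfactory bulb covariate (0.0029), without the 6 libraries (0.0077) and in 13 fits without 1 library (0.00062 to 0.0065, full range -0.0096 to 0.0065). The Mars1 differences turned in males alone, for HT against WT under lithium (-0.0037) and for the lithium change compared between genotypes (-0.0060).

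Over all genes the number called moved more than the set did: for lithium over both genotypes 443 became 0 in females alone, 8 in males alone, 280 without the 6 libraries, 696 by DESeq2, 748 with the olfactory bulb covariate and 1058 with array weights. For HT against WT under fluoxetine 165 became 5 (males alone) to 593 (array weights), and 26 to 1109 without 1 library. For fluoxetine in WT 61 became 0 to 859, for lithium in WT 5 became 0 to 284 and in HT 64 became 0 to 183.

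No pairing by replicate number was seen. Over 309 pairs with the same number the median correlation of deviations was 0.0024 (range -0.49 to 0.58), against -0.0042 for other pairs. Of 58 libraries, 15 were closest to one of their own number. The numbers were those of the sample titles, which differ from the library names for some WT lithium males. Shared litters or batches were not tested. With the replicate block the counts of called genes of the set were 1 for lithium in WT, 2 in HT and 6 over both genotypes, with 6, 62 and 416 genes called overall.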

Other observations

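The glucocorticoid response list, 14 genes outside the set, was measured beside it. Under fluoxetine over both genotypes 5 of the 14 rose, against 2.55% of all genes called, led by Map3k6 (0.77 ± 0.100, limma, adjusted p = 8.75e-06), Fkbp5 (0.51 ± 0.090, adjusted p = 0.00217), which encodes a cochaperone of the glucocorticoid receptor, and Zbtb16 (0.27 ± 0.063, adjusted p = 0.0161). Under lithium over both genotypes, with 2.67% of all genes called, 1 rose, Nfkbia (0.21 ± 0.057, limma, adjusted p = 0.0331). Between the drugs, with 7.5% of all genes called, Fkbp5 (-0.44 ± 0.093, limma, adjusted p = 0.00220), Map3k6 (-0.43 ± 0.103, adjusted p = 0.00651) and Plin4 (-0.64 ± 0.210, adjusted p = 0.0485) were lower under lithium.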
